A study of Mus musculus with 23 samples.

Results

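Crypt and villus cells of the mouse small intestine were compared at postnatal day 6 (P6). The comparison rested on 3 libraries of CD44-positive cells, labelled crypt, and 2 libraries of CD44-negative cells, labelled villus, out of 23 libraries in the series. All came from CD1 mice, an outbred stock, and all cells were Epcam-positive epithelial cells released with EDTA from the medial small intestine and sorted by flow cytometry. The remaining libraries held the same 2 populations at P0, P3 and P10, with 3 libraries each. No treatment or genetic change was named for any group. The labels do not say whether replicates were separate animals, litters or pools, so a p-value here reflects how far these libraries spread, which may be technical. A population sorted on CD44 is defined by that protein, not by dissection of crypts.

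The intestinal epithelium is renewed from stem cells between or below the villi, which need Wnt signals. Their daughters divide and then leave the cell cycle, becoming absorptive enterocytes or secretory cells (goblet, Paneth, enteroendocrine and tuft cells). In mice the crypts take shape after birth, while the pups live on milk, and enterocytes of that period take up fat and whole proteins. CD44, a hyaluronan receptor, is itself a target of Wnt signalling in this epithelium.

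Read counts per gene were scaled for library depth and are given as CPM, the usual unit of counts relative to the library total. Differences are log2 values of crypt minus villus, given with the standard error after ±, so a positive value is higher in crypt. They come from edgeR's quasi-likelihood model fitted over all 23 libraries, whose 8 groups share 1 estimate of the spread per gene. P-values were adjusted by Benjamini-Hochberg over 16535 genes, and a gene was called when the adjusted p was under 0.05. As there were 2 villus libraries, a call is named robust here when it also passed, in the same direction, in each of 5 fits that left out 1 of the P6 libraries. Where 1 villus library was left out, the remaining one was assumed to vary like the other groups.

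The P6 libraries held 27773415 to 37055554 counts and 18325 to 19529 detected genes. They differed first by population, as principal component 1 of the 5 libraries held 59.7% of their variance and placed crypt at -51.9 to -25.3 and villus at 45.7 and 72.8. Villus replicate 1 (villus 1) lay nearer to crypt than villus replicate 2 (villus 2). Mitochondrially encoded genes took 8.13% to 12.4% of the counts in crypt and 9.57% and 10.3% in villus. Over the whole series the first component held 58.4% of the variance. It placed the P6 libraries at 130 to 168, apart from those of P3 at 11.2 to 75.3. The P0 libraries lay at -130 to -68.2 and the P10 libraries at -83.3 to -62.4.

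Cd44 had 151, 98.6 and 109 CPM in the crypt libraries and 53.6 and 24.8 CPM in the villus libraries. All crypt libraries were above both villus libraries, with the lowest crypt value 98.6, and the fitted difference was 1.61 ± 0.41 (adjusted p = 0.00808). Since the sort used the protein, this checks the labels. The call was lost without villus 2 (1.26, adjusted p = 0.122). Epcam had 1880 to 2030 CPM in crypt and 1740 and 1760 in villus (0.18 ± 0.16, adjusted p = 0.474).

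Markers of cell types outside the epithelium were measured too. The summed level of 18 immune cell markers was 6.67 to 14.6 CPM in crypt and 13.6 and 26.8 CPM in villus, and without Csf1r it was 5.27 to 10.3 and 4.11 and 5.69 CPM. That of 13 mesenchyme markers was 4.49 to 6.3 CPM in crypt and 6.93 and 8.19 CPM in villus, and that of 8 endothelial markers 7.42 to 9.37 and 7.5 and 9.41 CPM. For 7 markers of enteric neurons and glia it was 7.45 to 9.63 CPM in crypt and 13.6 and 13.1 CPM in villus. Cdh5 and Kdr, endothelial genes, and Sox10, a gene of glia, had 0 counts in all 5 libraries. Within the immune list, Csf1r, the receptor gene of macrophages, had 1.4, 4.26 and 6.13 CPM in crypt and 9.53 and 21.1 in villus (-1.97 ± 0.68, adjusted p = 0.0447). It was the single called gene among 14 tested immune markers, and the call was lost without villus 2 (-1.19, adjusted p = 0.416), crypt 1 (-1.56), crypt 2 (-2.04) or villus 1 (-2.31). The immune list as a whole went the other way, with 12 of the 14 at a higher fitted value in crypt and a median of 1.93, most of them at under 1 CPM in every library. In 6 of them all crypt libraries were above both villus libraries, as was so in 28.3% of all tested genes. Ptprc, the general leukocyte gene, was among these 6 (0.405 to 0.894 CPM in crypt and 0.0441 and 0.343 in villus). None of 11 mesenchyme, 3 endothelial or 3 red blood cell markers tested was called, where edgeR gave 1, 0 and 0 genes with an unadjusted p under 0.05 and neither DESeq2 nor limma-voom called any. Of 4 neuron and glia markers S100b was called (-1.52 ± 0.48, adjusted p = 0.0289), and this was lost without villus 2 (-1.23), villus 1 (-1.56), crypt 1 (-1.36) or crypt 2 (-1.42). The part of these markers in the results was not tested. Of 15 genes known to rise when tissue is dissociated, none was called by edgeR or limma-voom and 1 by DESeq2, with 1 gene at an unadjusted p under 0.05 in edgeR and a median of 0.25.

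Of the 16535 genes tested, 1766 (10.7%) were higher in crypt and 1778 (10.8%) higher in villus. The median difference over all genes was 0.05, and it became 0.26 when libraries were scaled by their totals alone, with 2797 and 1181 calls. Without mitochondrially encoded genes the counts were 2430 and 1431. Leaving out villus 2 kept 862 of the 1766 crypt-higher calls (48.8%) and 390 of the 1778 villus-higher calls (21.9%), with 906 and 396 calls in that fit. Without crypt 1 there were 1214 and 1085 calls, and without villus 1 there were 1499 and 1063. For the villus-higher genes the median difference was -1.18 with all libraries, -1.16 without villus 1 and -0.91 without villus 2. In 1395 of these genes villus 1 was below villus 2. The median over all tested genes also moved, from 0.05 to 0.17 without villus 1 and 0.19 without villus 2. Medians of gene lists given below for these fits include that shift.

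Robust calls numbered 1013 (6.13% of tested genes), of which 709 (4.29%) were higher in crypt and 304 (1.84%) higher in villus. Their median differences were 1.17 and -1.61. In each of these 1013 genes every crypt library lay on 1 side of both villus libraries. That separation was common in the whole table, as crypt lay above villus in 28.3% of all tested genes and below it in 25.9%.

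**Figure D1:**
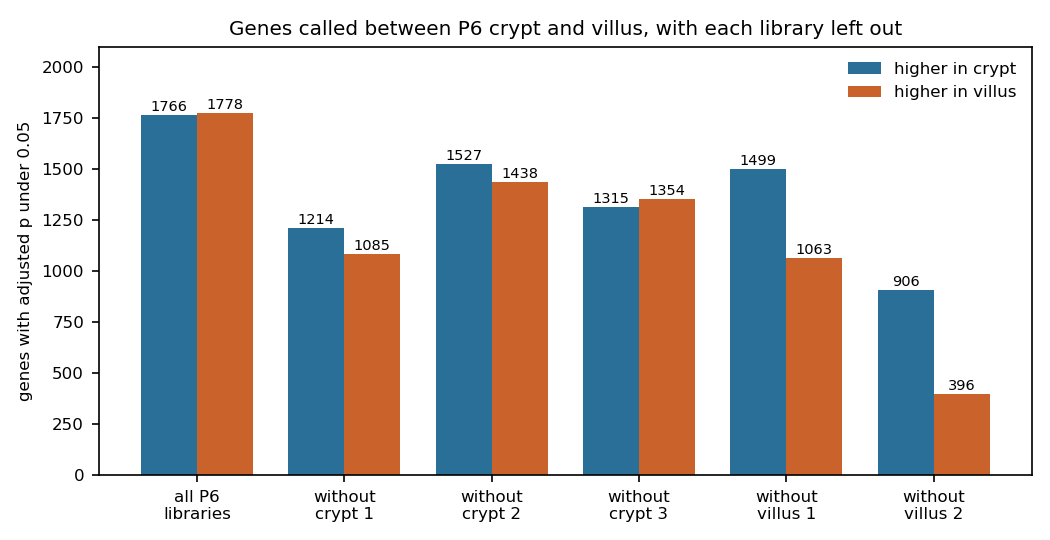
Bars give the number of genes with adjusted p under 0.05 (y axis) in the fit with all P6 libraries and in each fit that left out 1 of them (x axis), higher in crypt (blue) or in villus (orange). The lowest bars, 906 and 396, are those of the fit without villus 2.

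Cell division genes made the most uniform difference between the populations among the 49 gene lists. All 43 genes of a mitosis list were higher in crypt, where 10.7% of all tested genes were, and 41 of them were robust, where 4.29% of all tested genes were. Their median was 1.70, with a range of 1.36 to 2.24. Mki67, the classic marker of cycling cells, had 1360, 888 and 962 CPM in crypt and 368 and 286 CPM in villus. Both villus libraries were below every crypt library but still held the transcript. In such bulk samples fewer cells of a type and less RNA per cell cannot be told apart. The difference was 1.71 ± 0.29 (adjusted p = 0.000458), and 1.5 to 2.03 with a library left out.

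Plk1, a kinase that drives mitosis, had 18.6, 16.9 and 18.8 CPM in crypt and 3.97 and 4.02 CPM in villus. Its libraries lay close together within each population, and the difference was 2.18 ± 0.28 (adjusted p = 5.35e-05). The largest difference of the list belonged to Kif18b, a kinesin of the mitotic spindle (2.24 ± 0.33), followed by Plk1, the cell cycle transcription factor gene Mybl2 (2.15 ± 0.30) and the spindle genes Spag5 (2.05 ± 0.21) and Aspm (1.96 ± 0.35). Cdk1, the mitotic kinase gene, and its cyclin partner Ccnb1 differed by 1.67 ± 0.23 and 1.70 ± 0.20. Ect2, a regulator of cell cleavage, and Casc5, a kinetochore gene, were called without being robust, with 1.42 ± 0.38 and 1.65 ± 0.43, and each lost its call without villus 2 (1.23 and 1.37).

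DNA replication genes followed, with 43 of 46 higher in crypt, 36 of them robust, none higher in villus and a median of 1.33. Mcm3, a subunit of the replicative helicase, had 60.6, 54 and 66.9 CPM in crypt and 17.7 and 17.8 in villus. Its lowest crypt library was well above both villus libraries, and the difference was 1.77 ± 0.21 (adjusted p = 3.31e-05). Pole, the catalytic subunit gene of DNA polymerase epsilon, differed by 1.89 ± 0.24, and Cdc45, which joins the helicase, by 1.63 ± 0.26. The 3 genes not called were Pcna, the sliding clamp gene (0.74 ± 0.29, adjusted p = 0.0714), the cyclin gene Ccne2 (0.97 ± 0.44, adjusted p = 0.13) and the repressor gene E2f8 (-0.23 ± 0.20, adjusted p = 0.44).

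Since these genes differed together, their promoters were read. Many mitotic genes carry a CCAAT box and the letters TTTGAA, known as the cell cycle genes homology region, upstream of their start. RefSeq promoter windows (GRCm38.p6, 250 bases before the start) were found for 37 of the 43 mitosis genes, and both motifs were searched on both strands. Both letters occurred together in 11 of 39 mitosis windows (28.2%), against 5.55% of all 32851 windows and 4.08% of the windows of tested genes. CCAAT, with or without TTTGAA, was in 71.8% of the mitosis windows and 33.8% of all windows, and TTTGAA in 30.8% and 16%. Windows of the DNA replication genes held CCAAT in 62.2%, TTTGAA in 15.6% and both in 13.3%. Single motifs were also frequent in some lists described below. Windows of nutrient and ion transporter genes held TTTGAA in 26.5%, CCAAT in 20.6% and both in 2.94%. Those of brush border enzyme genes held them in 16.7%, 50% and 5.56%. These shares are descriptions, and a match does not show that a factor binds. The 150 bases before the start are shown for Mki67 (chr7:135716380-135716529, minus strand) and for 3 of the largest crypt-higher genes outside the lists, Ncapd2 (chr6:125191587-125191736, minus strand), Ckap2l (chr2:129297213-129297362, minus strand) and Kif22 (chr7:127042421-127042570, minus strand), because each holds both motifs. Of the mitosis genes with the largest differences, Aspm, Kif18b, Plk1 and Spag5 held CCAAT alone in that stretch, and Mybl2 held neither motif. Of other large crypt-higher genes outside the lists, Kif14 held CCAAT alone, Iqgap3 TTTGAA alone and Cenpi neither. The windows shown run 5′ to 3′ toward the start, and capitals mark TTTGAA and CCAAT or their reverse complements.
Mki67: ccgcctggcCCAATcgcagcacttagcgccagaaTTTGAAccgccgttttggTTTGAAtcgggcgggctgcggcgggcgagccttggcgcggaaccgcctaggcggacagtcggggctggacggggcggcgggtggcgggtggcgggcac
Ncapd2: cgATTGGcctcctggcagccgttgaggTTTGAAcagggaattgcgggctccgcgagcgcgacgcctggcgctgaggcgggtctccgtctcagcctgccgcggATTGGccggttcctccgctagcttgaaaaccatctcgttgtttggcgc
Ckap2l: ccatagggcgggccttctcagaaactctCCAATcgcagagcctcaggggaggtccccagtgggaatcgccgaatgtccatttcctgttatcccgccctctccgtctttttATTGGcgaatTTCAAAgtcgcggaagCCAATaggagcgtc
Kif22: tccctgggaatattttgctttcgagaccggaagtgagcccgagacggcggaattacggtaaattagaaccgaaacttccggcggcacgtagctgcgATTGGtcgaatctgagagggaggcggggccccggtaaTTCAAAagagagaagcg

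Ncapd2, a condensin subunit that compacts chromosomes, had 46.1, 37.7 and 46.6 CPM in crypt and 10.8 and 10.6 in villus, a difference of 2.02 ± 0.27 (adjusted p = 8.31e-05). Ckap2l, a spindle gene, had 100 to 135 CPM in crypt and 35.5 and 29.2 in villus (1.80 ± 0.22). Kif22, a kinesin that moves chromosomes, had 22.1, 21.5 and 23.4 CPM in crypt and 5.65 and 7.06 in villus (1.81 ± 0.24). Crypt and villus libraries that do not overlap were a condition for choosing genes outside the lists. The other robust genes outside the lists with the largest crypt excess were also largely of cell division: the kinesin gene Kif14 (1.91 ± 0.31), Cdca2 (1.87 ± 0.22), the phosphatase gene Cdc25c, which activates the mitotic kinase (1.86 ± 0.23), Iqgap3 (1.86 ± 0.37) and the centromere gene Cenpi (1.76 ± 0.28). The tubulin gene Tuba1b was among them (1.78 ± 0.29), although near-identical tubulin genes can share its reads. Aqp1, a water channel gene, was the exception, with 79.4, 71.1 and 97.5 CPM in crypt and 25.1 and 21.5 in villus (1.83 ± 0.25, adjusted p = 9.9e-05).

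Genes that supply growing cells were higher in crypt as well. Of 31 ribosome biogenesis genes, 30 were higher in crypt and 20 were robust, with a median of 1.02 and differences of 0.72 to 1.79. Tcof1, the gene of the nucleolar protein treacle, led the list (1.79 ± 0.34). Polr1b, a subunit gene of RNA polymerase I, which transcribes ribosomal RNA, had 51.9, 42.7 and 52.7 CPM in crypt and 21.5 and 17.3 in villus (1.34 ± 0.23, adjusted p = 0.000427). The crypt libraries were all more than 40 CPM and the villus libraries both under 22. Nop56, which acts in ribosomal RNA modification, differed by 1.46 ± 0.25, and Bop1 was the gene not called (0.92 ± 0.33, adjusted p = 0.0502).

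Of 21 genes of nucleotide, serine and polyamine synthesis, 18 were higher in crypt and 15 were robust, with a median of 1.19. Cad, the enzyme that begins pyrimidine synthesis, had 17.2, 11.2 and 16.3 CPM in crypt and 4.81 and 4.51 in villus (1.68 ± 0.34, adjusted p = 0.00189). Gart, a purine synthesis enzyme gene, differed by 1.51 ± 0.21 and Ctps, which makes CTP, by 1.49 ± 0.21. Shmt2, the mitochondrial enzyme that turns serine into glycine, differed by 1.59 ± 0.37. Not called were Odc1 of polyamine synthesis (0.34 ± 0.15), Gmps (0.56 ± 0.23) and Phgdh, the first enzyme of serine synthesis (0.59 ± 0.41), with adjusted p of 0.118, 0.0933 and 0.33. None of 21 cholesterol synthesis genes was called in either direction by edgeR (median 0.31), with 2 at an unadjusted p under 0.05, and limma-voom called 0 and DESeq2 called 1.

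**Figure D2:**
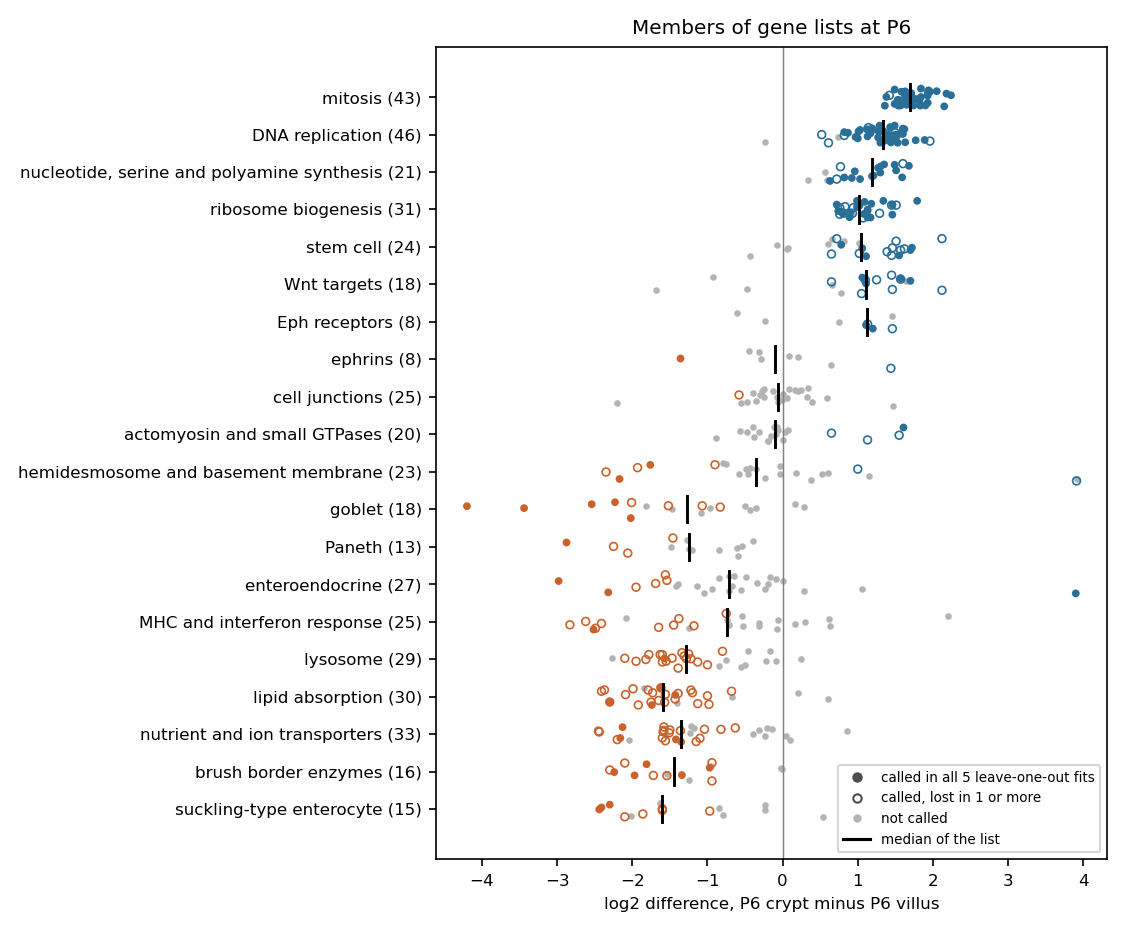
Each point is a gene, placed by its log2 difference of P6 crypt minus villus (x axis) within its list (y axis, number of tested genes in brackets), and black bars are list medians. Filled points were called in all 5 leave-one-out fits, open points were called with all libraries and lost in 1 or more, and grey points were not called. The mitosis points all lie between 1.36 and 2.24, while most points of the lipid absorption and lysosome lists are open.

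Among the genes that gate entry into the cell cycle, the inhibitors Cdkn1c and Cdkn2b were higher in villus. Of 14 cyclin D, CDK and CDK inhibitor genes, 3 were higher in crypt, none of them robust. Cdkn1c and Cdkn2b were the 2 higher in villus, both robust. Among all tested genes, 10.7% were higher in crypt and 10.8% higher in villus. Cdkn1c, the inhibitor p57, had 46.8, 86.4 and 81.4 CPM in crypt and 363 and 421 CPM in villus. The villus libraries were both more than 4 times the highest crypt library, with a difference of -2.46 ± 0.52 (adjusted p = 0.00239) and a range of -2.61 to -2.22 when a library was left out. Cdkn2b, the inhibitor p15, had 14.4, 18.3 and 13.7 CPM in crypt and 40.9 and 48.7 in villus (-1.53 ± 0.21, adjusted p = 9.5e-05). Cdkn1a and Cdkn1b, the inhibitors p21 and p27, differed by 0.11 ± 0.28 (adjusted p = 0.841) and 0.05 ± 0.25 (adjusted p = 0.93). Ccnd1, a cyclin gene that Wnt signals can induce, was higher in crypt (1.10 ± 0.27, adjusted p = 0.0065) and lost its call without villus 2 (1.03, adjusted p = 0.0713). Cdkn2c, the inhibitor p18, was higher in crypt too (1.35 ± 0.38) and was likewise lost without villus 2 (1.19).

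Stem cell genes were higher in crypt, although the best known of them depended on villus 2. Of 24 genes, 16 were higher in crypt, 6 were robust, none was higher in villus, and the median was 1.04. The robust ones were Smoc2, a matrix protein gene (1.72 ± 0.29), Cdca7 (1.70 ± 0.26), the RNA-binding protein gene Msi1 (1.55 ± 0.26), Ephb2 (1.11 ± 0.25), Rnf43, which removes Wnt receptors (1.06 ± 0.22), and Hopx (0.78 ± 0.15). Smoc2 had 86, 76 and 74.6 CPM in crypt and 27.9 and 20.1 in villus, with no overlap.

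Lgr5, the R-spondin receptor gene that marks crypt base stem cells, had 374, 319 and 300 CPM in crypt and 155 and 87 CPM in villus. Every crypt library was above both villus libraries, with villus 2 the lowest. The difference was 1.45 ± 0.38 (adjusted p = 0.00931), and without villus 2 it was 1.19 (adjusted p = 0.113). Olfm4, a secreted glycoprotein gene of stem cells, had 6930, 4640 and 3940 CPM in crypt and 2290 and 1090 in villus (1.62 ± 0.46, adjusted p = 0.0152). Its call was lost without villus 2 (1.28) or crypt 1 (1.35). Ascl2, the transcription factor gene of stem cells, had 9.25 to 9.60 CPM in crypt and 3.49 and 2.84 in villus (1.57 ± 0.38, adjusted p = 0.0057). Its values hardly varied within a population, and its adjusted p without villus 2 was 0.0677, with a difference of 1.53.

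Bmi1, Tert and Cd24a, also in the stem cell list, differed by 0.06 ± 0.32, -0.43 ± 0.32 and -0.08 ± 0.22, with adjusted p of 0.936, 0.385 and 0.859. Slc12a2, an ion transporter gene, had 3750 to 5430 CPM in crypt and 2010 and 2370 in villus, and its groups did not overlap, but it was not called (1.02 ± 0.52, adjusted p = 0.178).

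Wnt signalling genes were divided by role. Of 5 tested ligand and R-spondin genes in a list of 10, none was higher in crypt, and Rspo1, Rspo2 and Rspo3 had at most 2 counts in any P6 library. Wnt3, a ligand of Paneth cells, had 3.32 to 5.14 CPM in crypt and 4.15 and 3.38 in villus (0.25 ± 0.32, adjusted p = 0.638). Wnt5a, a ligand that acts largely outside the beta-catenin branch, was higher in villus (-1.58 ± 0.53, adjusted p = 0.0392), a call lost whichever P6 library was left out, with values of -1.79 to -1.06. Of 9 receptor genes Lgr5 alone was called, where 21.4% of all tested genes were. Fzd5, a Frizzled receptor gene, had 391 to 485 CPM in crypt and 287 and 226 in villus (0.79 ± 0.31, adjusted p = 0.0734). Of 12 intracellular components and TCF genes, 2 were higher in crypt, Tcf7 (1.05 ± 0.29, lost without villus 2 at 1.04 or crypt 3 at 0.87) and Axin1 (0.61 ± 0.16, lost without villus 1 at 0.60). Ctnnb1, the gene of beta-catenin itself, had 1410 to 1500 CPM in crypt and 1990 and 2210 in villus (-0.53 ± 0.19, adjusted p = 0.0505).

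Of 18 targets of Wnt signalling, 12 were higher in crypt, 4 were robust, none was higher in villus, and the median was 1.11. Many of these also belong to the stem cell list. Axin2, a feedback inhibitor widely used as a readout of the pathway, had 84.6, 70.8 and 80.1 CPM in crypt and 32.2 and 20.8 in villus. The groups were well apart, with a difference of 1.57 ± 0.32 (adjusted p = 0.002), which was robust at 1.39 to 2.05. Myc, the growth regulator, was higher in crypt (1.25 ± 0.36, adjusted p = 0.018) but lost its call without villus 2 (0.93) or crypt 3 (1.10). Among 8 secreted or intracellular inhibitors none was higher in crypt and 2 were higher in villus, Apcdd1 (-1.78 ± 0.61) and Wif1 (0.265 and 0.784 CPM in villus and at most 0.0312 in crypt). Neither was robust, as both lost their calls without villus 2, and Apcdd1, then at -1.06, also without any of the other P6 libraries.

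**Figure D3:**
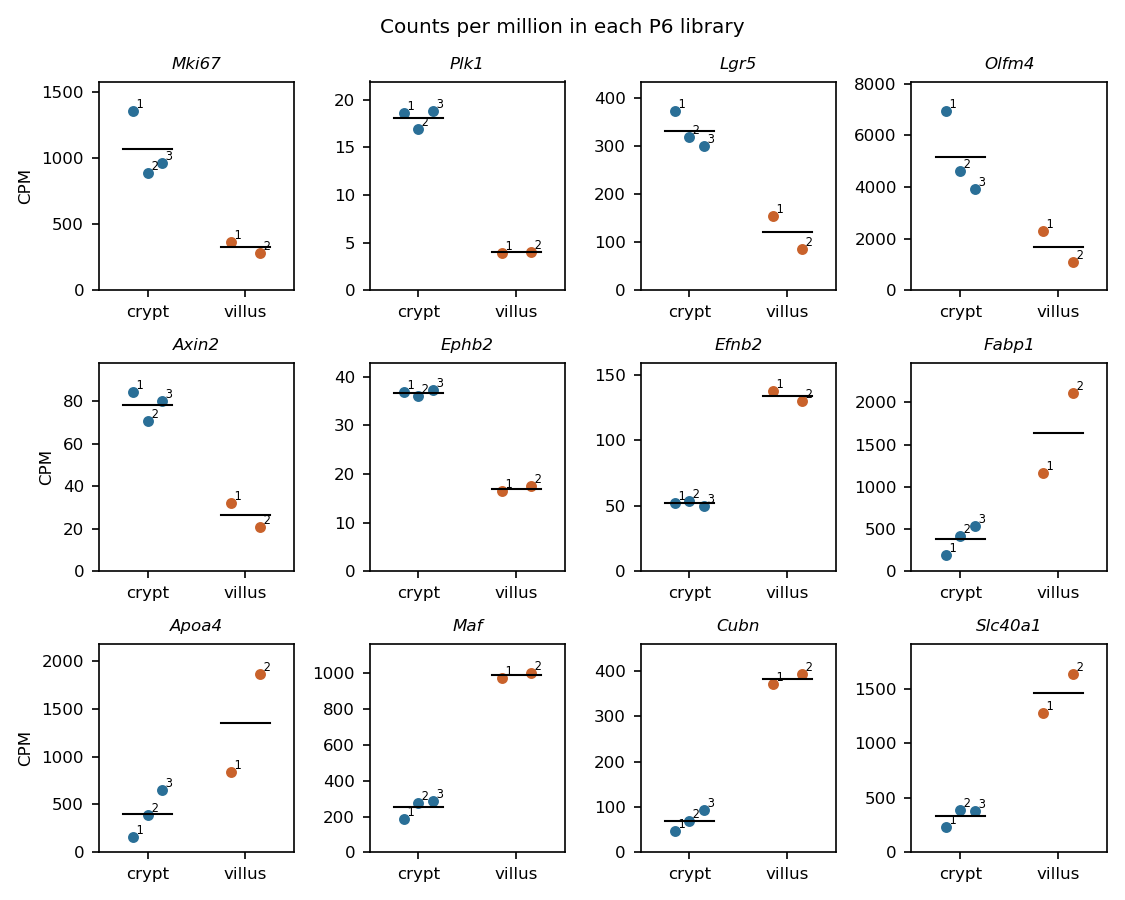
Points are the CPM (y axis, from 0) of 12 genes in each P6 library, numbered by replicate, with crypt in blue, villus in orange and black bars at the group means. Plk1, Ephb2, Efnb2, Maf and Cubn have villus libraries close to each other, whereas the villus libraries of Fabp1 and Apoa4 are far apart.

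Several Eph receptor genes were higher in crypt, and of the genes of their ligands, the ephrins, Efnb2 was higher in villus. Eph receptors are found on cells of the crypt, and ephrin-B ligands on cells nearer the villus. Ephb2 had 36.8, 36.1 and 37.3 CPM in crypt and 16.5 and 17.5 in villus (1.11 ± 0.25, adjusted p = 0.00322). Efnb2, a ligand gene, had 52.3, 54.1 and 49.9 CPM in crypt and 138 and 130 in villus (-1.36 ± 0.21, adjusted p = 0.000245). Replicates of both genes were close to each other, both calls were robust, and Efnb2 lay between -1.39 and -1.19 with a library left out. Of 8 tested receptor genes, 4 were higher in crypt, Ephb4 (1.20 ± 0.24) robustly and Ephb3 (1.46 ± 0.37) and Epha4 (1.13 ± 0.33) not, as both were lost without villus 2 (1.34 and 1.0) and Epha4 without crypt 1 (0.94). Of 8 ephrin genes, Efnb2 was higher in villus and Efna4 higher in crypt (1.44 ± 0.42, lost without villus 1, villus 2 or crypt 3, with 1.44, 1.67 and 1.27). Efnb1, the other main ligand of Ephb2, had 6.98 to 7.57 CPM in crypt and 5.87 and 6.77 in villus (0.20 ± 0.26, adjusted p = 0.655).

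In the Notch pathway, by which a cell holds its neighbours in the absorptive or stem cell fate, 3 of 13 ligand, receptor and modifier genes were called, where 21.4% of all tested genes were. Lfng and Notch1 were higher in crypt and Dll1 higher in villus. Lfng, a glycosyltransferase that modifies Notch receptors, had 6.02, 4.34 and 6.24 CPM in crypt and 1.63 and 0.637 in villus (2.27 ± 0.42, adjusted p = 0.000961). It was the robust one, at 1.86 to 3.24 with a library left out. Notch1 differed by 1.19 ± 0.29 (1.18 without villus 2, adjusted p = 0.0573). Dll1, a ligand gene of secretory precursors, had 35.9 to 40.6 CPM in crypt and 71.8 and 54.8 in villus (-0.70 ± 0.21, adjusted p = 0.0231). The Dll1 call was lost without villus 1 (-0.37), villus 2 (-0.78), crypt 1 (-0.74) or crypt 2 (-0.65). Hes1, a target of the pathway, differed by 0.52 ± 0.36 (adjusted p = 0.336), and Atoh1, the factor of secretory fate, by -1.04 ± 0.38 (adjusted p = 0.0535). Of 12 secretory fate factors, Sox4 was higher in crypt (1.09 ± 0.34) and Neurod1, of the enteroendocrine lineage, higher in villus (-1.56 ± 0.43). Sox4 was lost without villus 2 (0.78), crypt 1 (1.06) or crypt 3 (1.04), and Neurod1 without villus 1 (-1.30), villus 2 (-1.58) or crypt 1 (-1.39).

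The Hippo, BMP, Hedgehog and EGF receptor lists held 3 of 13, 3 of 20, 2 of 5 and 3 of 15 called genes. Over all tested genes 21.4% were called, and Lats2 was the robust one among the called members of these lists. Lats2, a kinase of the Hippo pathway, had 1.81, 2.64 and 1.97 CPM in crypt and 7.59 and 7.35 in villus (-1.81 ± 0.36, adjusted p = 0.00143). The other kinase gene, Lats1, differed by -0.19 ± 0.34 (adjusted p = 0.742) and the effector gene Yap1 by 0.18 ± 0.22 (adjusted p = 0.624). Of 20 BMP and TGF-beta genes, Bmp7 was higher in villus (-1.25 ± 0.30, lost without villus 2 at -0.94), as was the inhibitor Smad7 (-0.98 ± 0.29), lost without villus 1 (-0.73), villus 2 (-0.99), crypt 2 (-0.97) or crypt 3 (-0.89). Id1, a target of BMP signals, was higher in crypt (0.84 ± 0.22, lost without villus 2 at 0.75). Of 5 Hedgehog genes, the receptor gene Ptch1 (0.70 ± 0.23) and its partner Smo (1.46 ± 0.32) were higher in crypt. Both lost their calls without villus 2 (0.60 and 1.26), and Ptch1 also without crypt 1 (0.59) or crypt 3 (0.70). Of 15 EGF receptor pathway genes, 3 were higher in crypt and none was robust. Lrig1, which restrains the receptor and marks stem cells, had 55.7 to 62.8 CPM in crypt and 32.5 and 25.6 in villus (1.02 ± 0.25), with an adjusted p of 0.00677, and of 0.0678 without villus 2 (0.96). Egfr itself differed by 0.41 ± 0.19 (adjusted p = 0.138). The Hedgehog ligands Ihh and Shh differed by 0.18 ± 0.33 (adjusted p = 0.754) and -0.13 ± 0.46 (adjusted p = 0.89).

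Transcription factors of the enterocyte differed gene by gene. Of 32, 6 were higher in crypt and 6 higher in villus, where 10.7% and 10.8% of all tested genes were. Robust among them were 1 and 3, where 4.29% and 1.84% of all tested genes were. Maf, the gene of c-MAF, had 187, 278 and 289 CPM in crypt and 975 and 1000 CPM in villus (-1.97 ± 0.26, adjusted p = 6.99e-05). The villus libraries were close to each other and more than 3 times the highest crypt library. Nr1h4, the bile acid receptor FXR, was also higher in villus (-1.32 ± 0.24). Myb, which is needed for crypt progenitors, had 181 to 187 CPM in crypt and 74.1 and 56.6 in villus (1.49 ± 0.25, adjusted p = 0.000462). Prdm1, the gene of BLIMP1, which holds back adult enterocyte genes in the suckling gut, had 200 to 240 CPM in crypt and 471 and 413 in villus (-0.97 ± 0.21, adjusted p = 0.00277). Without villus 1 its adjusted p was 0.0527 (-0.74). Cdx2 and Hnf4a, factors that define intestinal epithelium, differed by 0.14 ± 0.20 (adjusted p = 0.675) and 0.17 ± 0.17 (adjusted p = 0.522), and Klf4 by -0.45 ± 0.35 (adjusted p = 0.392).

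Absorptive genes were higher in villus, and most of their calls were lost when villus 2 was left out. Of 16 brush border enzyme genes, 11 were higher in villus, against 10.8% of all tested genes, and 5 were robust, against 1.84%. None was higher in crypt, and the median was -1.44, or -1.14 without villus 2. Enpep, an aminopeptidase gene, had 158 to 351 CPM in crypt and 884 and 1100 in villus (-1.97 ± 0.39, adjusted p = 0.00143). Each villus library was more than 2 times the highest crypt library. The meprin protease genes Mep1b (-1.81 ± 0.34) and Mep1a (-1.34 ± 0.26) and the aminopeptidase gene Xpnpep2 (-0.97 ± 0.18) were robust as well.

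The disaccharidases did not share 1 pattern. Lct, the gene of lactase, which digests milk sugar, had 169, 319 and 365 CPM in crypt and 926 and 1510 in villus (-2.10 ± 0.46, adjusted p = 0.00324), and -1.60 without villus 2 (adjusted p = 0.0859). Sis, the sucrase-isomaltase gene of the adult gut, was at 14.4 to 23.6 CPM in crypt and 65.9 and 46.1 in villus (-1.54 ± 0.44, adjusted p = 0.0173). Its call was lost without villus 1 (-1.13), villus 2 (-1.67) or crypt 3 (-1.37). Mgam, the maltase-glucoamylase gene, had 687 to 948 CPM in crypt and 847 and 791 in villus, with overlapping groups (-0.01 ± 0.19, adjusted p = 0.998). Alpi, intestinal alkaline phosphatase, was higher in villus (-1.72 ± 0.43) and lost without villus 2 (-1.15).

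Of 14 microvillus structure genes 9 were higher in villus, with Pls1 and Anks4b robust and a median of -0.64. Pls1, the gene of the actin-bundling protein plastin 1, had 448, 856 and 802 CPM in crypt and 2350 and 3420 in villus (-2.04 ± 0.38, adjusted p = 0.000976). Anks4b, which links the microvillus tips, differed by -1.35 ± 0.20. Vil1, the villin gene, was less far apart, at 304, 358 and 367 CPM in crypt and 433 and 629 in villus (-0.63 ± 0.20, adjusted p = 0.0277), and was lost without villus 2 (-0.23), crypt 1 (-0.55) or crypt 2 (-0.66). The summed level of the 14 genes was 4090 to 4750 CPM in crypt and 8000 and 10200 CPM in villus.

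Lipid absorption was the list with the largest share of villus-higher genes among those for absorption. Of 30 genes, 25 were higher in villus and 4 robust, with a median of -1.59, or -1.0 without villus 2, when 5 genes were called. Fabp1, the liver-type fatty acid binding protein gene, had 191, 423 and 539 CPM in crypt and 1160 and 2110 in villus (-2.09 ± 0.47, adjusted p = 0.00374), and -1.49 without villus 2 (adjusted p = 0.11). Apoa4, an apolipoprotein gene of chylomicrons, had 164, 388 and 654 CPM in crypt and 838 and 1860 in villus (-1.75 ± 0.60, adjusted p = 0.0432). Both genes varied several-fold among crypt libraries, with crypt 1 lowest. The Apoa4 call was lost without villus 2 (-0.96), villus 1 (-2.08), crypt 1 (-1.37) or crypt 2 (-1.72). Apob, the structural apolipoprotein, and Mttp, which loads it with fat, differed by -1.79 ± 0.40 and -1.56 ± 0.37 and were lost without villus 2 (-1.36 and -1.17). Fabp2 and the retinol carrier gene Rbp2 differed by -1.62 ± 0.39 and -1.73 ± 0.47, and without villus 2 by -1.39 and -0.92, neither of them called. Rbp2 was also lost without crypt 1 (-1.41).

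The robust lipid genes were Abcg5, a sterol exporter (-2.30 ± 0.45), Lrat, which esterifies retinol (-1.74 ± 0.31), the lipid droplet coat gene Plin3 (-1.62 ± 0.24) and Apobec1, which edits the Apob transcript (-1.43 ± 0.25). Lrat had 96.5, 106 and 118 CPM in crypt and 351 and 364 in villus, and was the steadiest of them, at -1.82 to -1.62 with a library left out. Fabp5, another fatty acid binding protein gene, went the other way, with 3.24 to 4.28 CPM in crypt and 1.15 and 0.833 in villus (1.91 ± 0.44, adjusted p = 0.00437), and lost its call without villus 2 (1.81, adjusted p = 0.0684).

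Transporter genes were higher in villus for 20 of 33 members, with 4 robust, none higher in crypt and a median of -1.35. Slc40a1, ferroportin, which exports iron to the blood, had 236, 388 and 378 CPM in crypt and 1280 and 1640 in villus (-2.13 ± 0.37, adjusted p = 0.000495). Slc11a2, DMT1, which takes up iron from the lumen, had 56.6, 114 and 75.6 CPM in crypt and 270 and 464 in villus (-2.16 ± 0.39, adjusted p = 0.000762). Both genes of iron passage had each villus library above every crypt library. The glucose carrier gene Slc5a1 (-1.35 ± 0.22) and Slc3a1, a subunit of an amino acid carrier (-1.42 ± 0.30), were the other robust members. Slc3a1 had 121, 134 and 144 CPM in crypt and 353 and 355 in villus. The basolateral glucose carrier Slc2a2 (-2.45 ± 0.70) and the peptide carrier Slc15a1 (-2.20 ± 0.48) had larger differences but lost their calls without villus 2 (-1.92 and -1.70), Slc2a2 also without crypt 1 (-2.08).

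The promoter of Slc3a1 is shown because it holds the letters CAAAGTCCA, a sequence bound by HNF4, a nuclear receptor of enterocytes (chr17:85028197-85028346, plus strand, GRCm38.p6, capitals mark CAAAGTCCA and a TTTGAA match, here as its reverse complement). In the 250 bases before the start, on either strand, CAAAGTCCA was in 5 of 302 windows of robust villus-higher genes (1.66%) and in 0.384% of all windows. A CAAAGTCCA match can share bases with a match of TTTGAA or CCAAT, and 5 windows are few.
Slc3a1: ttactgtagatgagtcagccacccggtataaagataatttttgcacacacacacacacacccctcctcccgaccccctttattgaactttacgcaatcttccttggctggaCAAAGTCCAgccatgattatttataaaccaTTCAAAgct

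Genes of the suckling enterocyte, which engulfs milk proteins and digests them in lysosomes, showed the same direction. Of 15, 8 were higher in villus and 3 were robust, Cubn and Dab2 among them, with a median of -1.60. Cubn, the gene of the endocytic receptor cubilin, had 48.2, 68.8 and 94.1 CPM in crypt and 371 and 394 CPM in villus (-2.44 ± 0.56, adjusted p = 0.00421). Dab2, an adaptor of that uptake route, had 106, 198 and 158 CPM in crypt and 672 and 849 in villus (-2.30 ± 0.42, adjusted p = 0.000806). Both villus libraries were more than 3 times the highest crypt library in each gene. Fcgrt, the neonatal receptor for maternal IgG, had 46.3, 103 and 131 CPM in crypt and 227 and 452 in villus (-1.86 ± 0.59, adjusted p = 0.0294), and lost its call without villus 2 (-1.18), crypt 1 (-1.53) or crypt 2 (-1.94). Cps1, the first enzyme of the urea cycle and abundant in both populations, had 8720 to 10200 CPM in crypt and 7520 and 5760 in villus (0.54 ± 0.29, adjusted p = 0.202). Of 8 adult-type enterocyte genes, 3 were higher in villus, Sis and Fgf15 among them, and Fgf15, a hormone of bile acid control, was lost whichever library was left out (-1.82 to -1.04).

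Lysosomal genes had 19 of 29 members higher in villus and none higher in crypt, but Tpp1 alone was robust (-1.58 ± 0.28). The list median was -1.28, and -0.87 without villus 2, when 1 gene was called. Tpp1, a lysosomal peptidase gene, had 109, 158 and 146 CPM in crypt and 345 and 478 in villus. Lamp1, a main protein of the lysosomal membrane, had 446, 599 and 540 CPM in crypt and 1140 and 1470 in villus (-1.31 ± 0.25, adjusted p = 0.00102). It fell just short without villus 2 (-1.01, adjusted p = 0.0514). For the burning of fatty acids and the making of ketone bodies, 5 of 22 genes were higher in villus, where 10.8% of all tested genes were. Of the 5, 1 was robust, and the list median was -0.59.

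Interferon response genes were higher in villus for 10 of 25 members of a list with MHC genes, with none higher in crypt and a median of -0.74. Ifit1, an antiviral gene, had 68.4, 175 and 134 CPM in crypt and 536 and 902 in villus (-2.52 ± 0.44, adjusted p = 0.00058), and it was the robust one. B2m, the MHC class I light chain gene, had 661 to 1020 CPM in crypt and 1710 and 2760 in villus (-1.45 ± 0.27, adjusted p = 0.000919), with -0.97 and adjusted p = 0.0674 without villus 2. Without that library the list median was -0.12. The MHC class II genes H2-Aa, H2-Ab1 and H2-Eb1 were all under 0.4 CPM in every library. Immune cell markers summed to 6.67, 14.6 and 13 CPM in crypt and 13.6 and 26.8 in villus, and without Csf1r, which alone had 21.1 CPM in villus 2, to 5.27, 10.3 and 6.9 CPM in crypt and 4.11 and 5.69 in villus. Of 14 tested, 12 had a higher fitted value in crypt, and their part in this result was not tested.

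Among the secretory cell lists, that of goblet cells held the most robust villus-higher genes. Of 18 tested, 9 were higher in villus and 5 were robust, none was higher in crypt, and the median was -1.27. Clca1, a secreted goblet cell protein gene, had 92.3, 88.8 and 40.5 CPM in crypt and 783 and 818 CPM in villus. Both villus libraries were more than 8 times the highest crypt library, the difference was -3.44 ± 0.30 (adjusted p = 4.38e-06), and it lay between -3.63 and -3.14 with a library left out. Muc2, the main gel-forming mucin of the intestine, had 22.1, 30 and 15.8 CPM in crypt and 83.3 and 180 in villus (-2.54 ± 0.30, adjusted p = 3.31e-05), and -1.78 without villus 2. Zg16, a goblet cell lectin gene, had 2.28, 5.66 and 2.47 CPM in crypt and 21.3 and 105 CPM in villus, so its size depended on villus 2 (-4.20 ± 0.69 with all libraries and -2.53 without it). The mucus protein gene Fcgbp (-2.23 ± 0.31) and Capn9 (-2.02 ± 0.43) were the other robust members. Tff3, a trefoil factor gene, was higher in villus (-1.52 ± 0.43) and lost without villus 2 (-1.11) or crypt 1 (-1.39), and Spdef, a goblet cell transcription factor gene, was under 2 CPM in every library (-0.36 ± 0.44, adjusted p = 0.618).

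Of 19 Paneth cell genes, 13 could be tested, and the other 6, all of the defensin family, had at most 1 count in any P6 library. Of the 13, 4 were higher in villus, where 10.8% of all tested genes were, and Itln1 was robust. Itln1, an intelectin gene, had 130, 144 and 60.3 CPM in crypt and 858 and 787 in villus (-2.88 ± 0.37, adjusted p = 5.24e-05). Mptx1 and Mptx2, pentraxin genes, were higher in villus (-2.25 ± 0.52 and -2.06 ± 0.51) but highest in villus 1, and lost their calls without it (-1.62 and -1.27). Reads of Mptx1 and Mptx2, as of the defensin gene Defa24 (-1.46 ± 0.36, lost without villus 1 at -1.30 or villus 2 at -1.4), may be divided among near-identical copies. Lyz1, the lysozyme gene by which Paneth cells are usually found, had 30, 28.3 and 8.52 CPM in crypt and 40.1 and 40.3 in villus (-0.85 ± 0.45, adjusted p = 0.189).

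Enteroendocrine genes went both ways. Gip, the hormone gene of K cells, had 32.9, 51.2 and 56.9 CPM in crypt and 2.12 and 4.22 CPM in villus. The crypt libraries were all more than 7 times the higher villus library, with a difference of 3.90 ± 0.81 (adjusted p = 0.00229) and a range of 3.6 to 4.57 with a library left out. Nts, the neurotensin gene, had 13.7, 56 and 32.9 CPM in crypt and 241 and 298 in villus (-2.98 ± 0.65, adjusted p = 0.00311). Gcg, the proglucagon gene of L cells, had 31.3, 51.1 and 21.9 CPM in crypt and 205 and 143 in villus (-2.32 ± 0.41, adjusted p = 0.000564). These 3 hormone genes were the robust members among 27. Of the 27, 1 was higher in crypt and 6 higher in villus, where 10.7% and 10.8% of all tested genes were, and the median was -0.71. Chga, a granule protein gene of most enteroendocrine cells, differed by -1.95 ± 0.52 (adjusted p = 0.0116), and lost its call without villus 2 (-1.44) or crypt 1 (-1.73). Neurog3, the factor that starts the lineage, had 0.686 to 1.19 CPM in all libraries (0.28 ± 0.53, adjusted p = 0.767). Among 8 tested of 16 tuft cell genes, Dclk1 was called in villus (-2.00 ± 0.63), at under 0.6 CPM in every library and lost without villus 2 (-1.69), villus 1 (-2.07), crypt 1 (-1.81) or crypt 3 (-1.76).

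**Figure D4:**
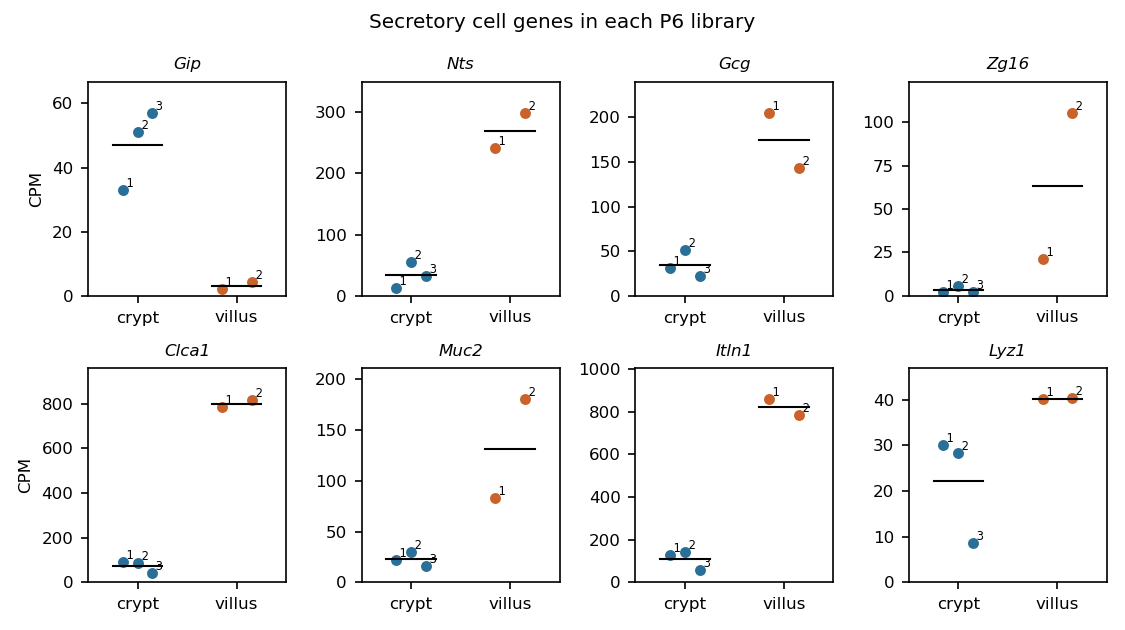
Points are the CPM (y axis, from 0) of 8 secretory cell genes in each P6 library, numbered by replicate, with crypt in blue, villus in orange and black bars at the group means. Gip is at 32.9 to 56.9 CPM in crypt and 2.12 and 4.22 CPM in villus, while Nts, Gcg, Clca1 and Itln1 have both villus libraries far above crypt.

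Adhesion to the basement membrane was described with 23 genes of hemidesmosomes, laminins and integrins, of which 2 were higher in crypt and 5 higher in villus. Over all tested genes, 10.7% were higher in crypt and 10.8% higher in villus. Lama3, the laminin alpha 3 chain gene, had 6.98, 11.6 and 10.5 CPM in crypt and 40.3 and 47 in villus (-2.17 ± 0.42, adjusted p = 0.00125). Dst, a plakin that ties hemidesmosomes to keratin, had 17.4, 22.2 and 21.4 CPM in crypt and 55.5 and 82.2 in villus (-1.76 ± 0.25, adjusted p = 0.000109). Both genes were robust, and their villus libraries were more than 2 times the highest crypt library. Itga6, the integrin alpha 6 gene, had 547, 520 and 506 CPM in crypt and 277 and 249 in villus (1.0 ± 0.31, adjusted p = 0.0267). Although the groups were clearly apart, its call was lost without villus 2 (1.02), villus 1 (1.20) or crypt 1 (0.97). Its partner Itgb4 had 6.48 to 8.94 CPM in crypt and 7.5 and 8.78 in villus, with overlapping groups (-0.03 ± 0.31, adjusted p = 0.97).

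Among 20 genes of actomyosin and small GTPases, 4 were higher in crypt and none in villus. Tiam1, an activator of the GTPase Rac, had 31.9, 24.1 and 23.5 CPM in crypt and 10.5 and 6.96 in villus (1.60 ± 0.30, adjusted p = 0.00106) and was robust. Vav3, another activator of Rac, had 254 to 304 CPM in crypt and 156 and 99.9 in villus (1.13 ± 0.30, adjusted p = 0.00999), and 0.94 without villus 2 (adjusted p = 0.11). Rac1 itself had 321 to 350 CPM in crypt and 341 and 373 in villus (-0.11 ± 0.12, adjusted p = 0.581). Myh9, a nonmuscle myosin heavy chain gene, had 161 to 171 CPM in crypt and 96 and 115 in villus (0.65 ± 0.23, adjusted p = 0.0451). Its replicates were close, but the call was lost whichever library was left out (0.63 to 0.89). Flna, an actin cross-linker gene, differed by 1.55 ± 0.38 and was lost without villus 2 (1.4). Of 25 cell junction genes, Cgn, the cingulin gene of tight junctions, was higher in villus (-0.58 ± 0.16) and lost without villus 2 (-0.31) or crypt 1 (-0.52), and Cdh1, the E-cadherin gene, had 1120 to 1260 CPM in crypt and 1120 and 1290 in villus.

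Ada, an enzyme that breaks down adenosine and is known from the villus tip of adult mice, was low and higher in crypt. It had 2.49, 1.83 and 1.97 CPM in crypt and 0.397 and 0.343 in villus (2.49 ± 0.32, adjusted p = 5.24e-05). It was the robust gene of 7 in a villus tip list, in which Apoa4 and the transcription factor gene Creb3l3 were higher in villus, the latter by -1.39 ± 0.32 and lost without villus 2 (-0.95).

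Outside the lists, the robust genes with the largest villus excess were varied in kind. Smcp, known as a sperm mitochondrial gene, had 2.87, 5.15 and 4.47 CPM in crypt and 26.8 and 30.9 in villus (-2.80 ± 0.56, adjusted p = 0.00183). The cytokine gene Il1a had 1.90, 4.60 and 5.32 CPM in crypt and 27.5 and 23.6 in villus (-2.70 ± 0.61, adjusted p = 0.00368). Both had villus libraries more than 4 times the highest crypt library. Clec2e, of the C-type lectin family, was the most abundant, with 114, 271 and 188 CPM in crypt and 906 and 1420 in villus (-2.61 ± 0.46). The chemokine gene Ccl6 had 31.7 to 95.1 CPM in crypt and 553 and 290 in villus (-2.62 ± 0.39), and -1.95 without villus 1. Fer1l6, a ferlin gene, and Fhl1, a LIM protein gene, were also highest in villus 1 (-2.73 ± 0.38 and -2.50 ± 0.39), and were at -2.06 and -1.93 without it. Herc6, an interferon-induced gene, had 6.83 to 18.6 CPM in crypt and 51 and 99.1 in villus (-2.67 ± 0.47), and -2.02 without villus 2. The others were the predicted genes Gm2061 (-2.82 ± 0.53) and Gm9765 (-2.62 ± 0.38) and Ugt1a9 of glucuronidation (-2.52 ± 0.56), whose reads may be divided with the other Ugt1a transcripts, which share exons.

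The genes that were robust at P6 were nearly all called at the neighbouring ages too. Of the 709 robust crypt-higher genes, 697 were called in the same direction at P3 (98.3%, and 25.7% of the 2707 called there), 680 at P10 (95.9%, and 32.6% of 2088) and 617 at P0 (87%, and 22.6% of 2728). Of the 304 robust villus-higher genes, 304 were called at P3 (100%, and 11% of 2775), 298 at P10 (98%, and 15.5% of 1922) and 196 at P0 (64.5%, and 11.6% of 1696). In all, 33.2% of tested genes were called in either direction at P3, 24.3% at P10 and 26.8% at P0. All ages share 1 estimate of the spread per gene, so calls at different ages are not independent. Of all 1766 crypt-higher calls at P6, 86.3% were called in the same direction at P3, 77.4% at P10 and 66.8% at P0. For the 1778 villus-higher calls the shares were 91.7%, 74.7% and 41.7%. Efnb2 was among those not called at P0 (0.05 ± 0.19, adjusted p = 0.88), and it differed by -0.88 ± 0.20 at P3 and -1.45 ± 0.20 at P10. Cubn was not called at P0 either (-1.22 ± 0.50, adjusted p = 0.0799).

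Whether the crypt and villus difference itself changed between ages was tested gene by gene. No gene passed (0% of 16535), either for P6 against P3 or for P6 against P10. In these contrasts 271 and 241 genes (1.64% and 1.46%) had an unadjusted p under 0.05 by edgeR. These shares are below what a threshold of 0.05 gives with no change. The absence of calls thus does not show that the difference stayed the same. DESeq2 and limma-voom called 0 as well, with 294 and 229 genes under 0.05 unadjusted against P3 and 296 and 202 against P10. The median standard error of the change was 0.42 for both contrasts, against 0.31 for the P6 difference, so a change of that size could not be detected. Both contrasts share the P6 libraries. For Lgr5 the difference was 1.45 at P6 and 2.33 at P3, a change of -0.88 ± 0.48, and for Fabp1 it was -2.09 at P6 and -3.42 at P10, a change of 1.33 ± 0.65, each with an adjusted p of 1. Mitosis genes had medians of 2.04, 2.01, 1.70 and 1.52 at P0, P3, P6 and P10. Those of lipid absorption were -1.07, -1.79, -1.59 and -2.22, and those of goblet cell genes -1.59, -1.23, -1.27 and -0.79.

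**Figure D5:**
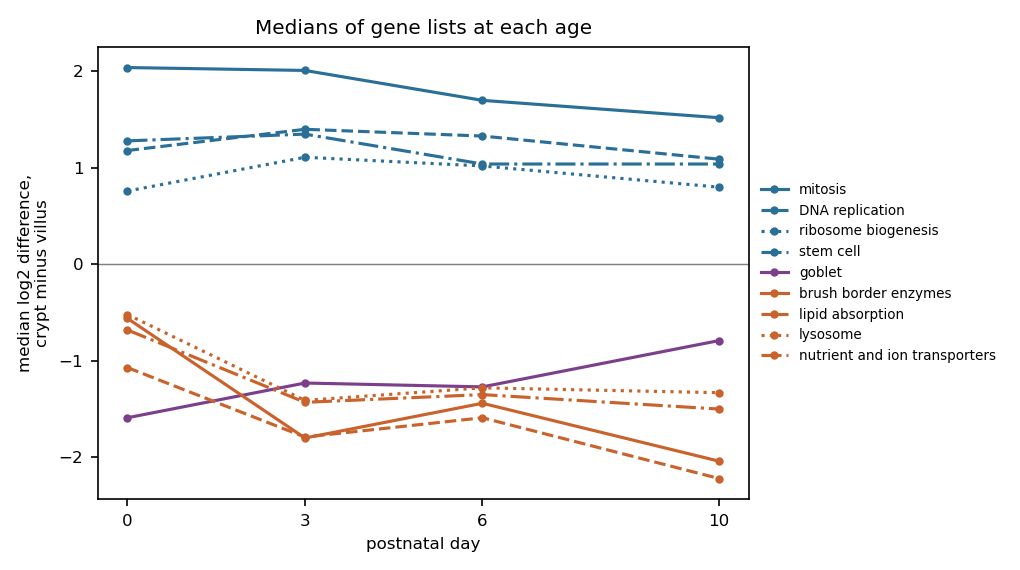
Lines join the median log2 difference of crypt minus villus (y axis) of 9 gene lists at P0, P3, P6 and P10 (x axis, postnatal day). Each median keeps its sign at all 4 ages, and the difference between ages was not called for any gene between P6 and P3 or P10.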

How the data were processed

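Poly(A) RNA was sequenced with a stranded kit, per the labels' protocols. Reads were trimmed with Trim Galore, aligned with STAR to mm9 and counted with HTSeq, per the submitters' processing notes. Versions, the strand setting and the treatment of reads that match several places are not given in the sources used here. The authors deposited whole-number counts for 47593 gene symbols per library. The 5 HTSeq summary lines were left out, and reads outside annotated genes were 12.1% to 13.5% of the P6 reads.

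Genes were filtered with filterByExpr (minimum count 10, minimum total 15) and scaled by TMM in edgeR 4.0.16 (R 4.3.3). The quasi-likelihood model had 8 groups and 15 residual degrees of freedom. The 3 contrasts were P6 crypt minus villus, and its change from P3 and from P10, each adjusted by Benjamini-Hochberg with a threshold of 0.05. CPM are TMM-scaled. The standard error is the log2 difference divided by the square root of F. Scripts were tested on simulated data. Precision is limited by 5 libraries at P6, and samples were grouped by the labelled age and population.

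Named genes came from a fixed set of names and from the largest robust calls and most abundant uncalled members of 49 gene lists. Outside the lists, the 10 largest robust calls in each direction were taken. For these the mean log2 CPM over the P6 libraries had to reach 3, and crypt and villus libraries could not overlap. Further list members were added after their values were seen. The comparison, the lists and the names were chosen with earlier results of these data known. Alternatives were other scalings and filters, DESeq2 1.42.0, limma-voom (limma 3.58.1), thinned counts, a replicate block, fewer groups, and each library left out. Some genes are not reported here.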

Additional observations from a re-analysis of the deposited data

How the results depend on the processing

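The 1766 crypt-higher and 1778 villus-higher calls became 2797 and 1181 with libraries scaled by total alone. Leaving out 1 P6 library gave 906 to 1527 and 396 to 1438 calls. The remaining planned settings stayed within 1.5 times in both directions: DESeq2 gave 2354 and 1956 calls, limma-voom 1539 and 1687, and no filter on low counts 1297 and 1271. Leaving out mitochondrially encoded genes, chosen after seeing the data, gave 2430 and 1431. The replicate number as a block gave 1890 and 2033 calls. The labels state no pairing, and deviations of same-numbered libraries from their group means correlated at 0.487 and 0.359 over 2 pairs. With 2 villus libraries, the deviations of villus 1 and villus 2 mirror each other, so these 2 values are not independent. Crypt 3, without a villus library of its number, correlated at -0.157 with villus 1 and 0.157 with villus 2. What same-numbered libraries share is not stated.

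No gene was called for the change from P3 or P10 under any setting, the replicate block included (0 and 0 calls). With only the groups compared, 1905 genes had an unadjusted p under 0.05 against P10, and the smallest adjusted p was 0.309. Of 3386 comparisons of 212 named genes with 16 alternatives, 3203 kept their side of the threshold, 73 lost a call, 110 gained one and 0 reversed a call. A gene called in neither fit was counted as kept even where its sign changed, as for Efna1 (-0.29, and 0.31 without villus 2). The cause was not tested. With 2 villus libraries, changes of small size were not detectable at this number and depth.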

Other observations

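A few genes followed the replicate number across both populations at P6, and they were picked after their values were seen. Reg3g, an antibacterial lectin gene, had 734 and 1150 CPM in crypt replicate 2 and villus replicate 2, and 33.6 to 44.2 CPM in the other 3 libraries. Its relative Reg3b had 2120 and 2950 CPM in those 2 libraries and 77.5 to 144 CPM elsewhere. St6galnac1, a sialyltransferase gene of mucins, went the opposite way, with 0.383 and 0.588 CPM in the replicate 2 libraries and 23.2 to 69.3 CPM in the others. None of the 3 was called between crypt and villus, with differences of -1.16 ± 1.17 (adjusted p = 0.532), -1.01 ± 1.26 (adjusted p = 0.626) and 0.17 in edgeR's test (adjusted p = 0.982). The labels do not say what libraries of 1 replicate number share.

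Of 13 tested antimicrobial genes, Reg4 (-1.60 ± 0.48) and Lypd8 (-0.58 ± 0.19) were higher in villus, where 10.8% of all tested genes were. Reg4, a lectin gene of enteroendocrine and deep crypt secretory cells, was highest in villus 1 and lost its call without it (-0.82) or without crypt 1 (-1.67) or crypt 2 (-1.34). Lypd8, which keeps flagellated bacteria from the epithelium, had 1530 to 1740 CPM in crypt and 1980 and 3000 in villus, and lost its call without villus 2 (-0.15) or any 1 crypt library (-0.62 to -0.53).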
